A study of Mus musculus with 20 samples.

Results

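Expression of 10 genes known to be activated by the transcription factor p53 was examined in hair follicle stem cells. They were Eda2r, Mdm2, Ccng1, Phlda3, Zmat3, Bax, Bbc3, Sesn1, Sesn2 and Trp53inp1, among 18727 genes tested. The set was chosen by the high anagen signal of Eda2r, with the question whether other p53 targets share it, so the members' anagen minus telogen values are given as a description without a test. RNA came from male mice of 5 conditions: aged mice (24 months old), mice fed a high fat diet (HFD) or a normal diet (ND) for 3 months (5 months old), and mice fed HFD or ND for 4 days (2 months old). The labels give no diet for the aged mice, no strain and no genetic alteration. Each condition had 1 array from anagen, the growth phase of the hair cycle, and 3 arrays from telogen, its resting phase, or 5 anagen and 15 telogen arrays of 1 colour in all. The labels do not state whether replicates are separate animals, and the p-values reflect spread among these arrays, which may be technical.

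p53 is held at a low level in unstressed cells, mainly by the ubiquitin ligase Mdm2, and is stabilised when DNA is damaged or growth signals are abnormal. It then switches on genes that stop the cell cycle, repair damage, change metabolism or open the mitochondrial path to cell death, and it raises Mdm2 itself, which closes a negative feedback loop. In skin, Eda2r is best known as the receptor for the A2 form of ectodysplasin, a member of the tumour necrosis factor family, while the related receptor Edar, which binds the A1 form, acts in the formation of hair follicles.

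Values are log2 intensities relative to the 75th percentile of each array, from the brightest probe of each gene, so 0 is the intensity at that percentile. Of the spots, 60.7% to 83.49% per array stood well above background. All 8 bulge stem cell markers (Cd34, Krt15, Lgr5, Sox9, Nfatc1, Tcf7l1, Lhx2 and Itga6) were well above background on all 20 arrays. So were 4 of the 5 tested markers of differentiated epidermis and all 4 tested markers of macrophages and Langerhans cells (Csf1r, Itgam, Cd207 and Cd74), so detection alone does not set the labelled cells apart from these. Slide column 1 held every anagen array and columns 2 to 4 the telogen arrays, so phase and column cannot be told apart. Among the telogen arrays, both 3-month groups lay on slide 1, both 4-day groups on slide 2 and the aged group on slide 3. In RNA from many cells, fewer cells of a type and less RNA per cell cannot be told apart.

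The promoters of these genes are shown because p53 binds a DNA motif made of a pair of half-sites, and Eda2r is the member whose values stood apart. In the RefSeq promoter table (GRCm38.p6), which covers 250 bases before to 50 bases after a start site, 8 members had 11 windows. Each window was searched for the p53 half-site consensus, a motif of 10 letters that reads the same on both strands. Half-sites were found in 1 window each of Mdm2, Ccng1, Bax and Sesn1, with first bases 186, 185, 201 and 173 positions before the start site.
In the following stretches of 40 bases, given 5′ to 3′ on the strand of the gene, capitals mark the half-site.
Mdm2 (chr10:117710920-117710959, - strand): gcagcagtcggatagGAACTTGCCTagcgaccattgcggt
Ccng1 (chr11:40755447-40755486, - strand): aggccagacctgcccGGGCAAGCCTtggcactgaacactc
Bax (chr7:45467075-45467114, - strand): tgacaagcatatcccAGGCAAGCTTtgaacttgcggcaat
Sesn1 (chr10:41887251-41887290, + strand): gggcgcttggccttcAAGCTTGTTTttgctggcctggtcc
The 250 bases before the start of Eda2r held no half-site, and neither did the windows of Phlda3, Bbc3 and Sesn2.
Eda2r (chrX:97377210-97377459, - strand): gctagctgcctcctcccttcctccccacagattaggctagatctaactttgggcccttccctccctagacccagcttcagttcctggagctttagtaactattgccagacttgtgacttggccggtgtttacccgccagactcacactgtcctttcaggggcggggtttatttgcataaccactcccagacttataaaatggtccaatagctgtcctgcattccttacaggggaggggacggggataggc
Of all 32851 promoter windows in the table, 8.36% held a half-site and 0.0731% held a pair at most 13 bases apart. A match is a description of letters, not a binding site, and its absence says nothing about sites elsewhere in a gene.

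Eda2r was the member with the largest difference between the phases. On the anagen arrays its values were 0.89 in aged, 0.53 in HFD 3 months, -0.96 in ND 3 months, 0.24 in HFD 4 days and -2.51 in ND 4 days cells. On the 15 telogen arrays the lowest value was -7.36, the median -5.78 and the highest -1.87. In 4 of the 5 conditions the anagen array lay above all 3 telogen arrays of its condition. The exception was ND 4 days, where telogen replicate 3 read -2.11, and this array and aged telogen replicate 2, at -1.87, were the 2 telogen arrays above the lowest anagen value. This Eda2r probe was well above background on 5 of 5 anagen arrays and on 6 of 15 telogen arrays, namely all 3 aged, 1 HFD 4 days and 2 ND 4 days arrays.

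The difference of the anagen array from the mean of the 3 telogen arrays was 4.75 (log2) in aged, 6.75 in HFD 3 months, 5.61 in ND 3 months, 6.50 in HFD 4 days and 2.01 in ND 4 days. Its mean was 5.12 ± 1.91 (SD, n = 5 conditions), and it lay between 3.40 (normexp background correction) and 5.90 (log2) under 29 other ways of processing the arrays. Anagen and telogen arrays shared a slide in aged, ND 3 months and ND 4 days, so the values 4.75, 5.61 and 2.01 are differences within a slide. For lower bounds, each telogen array on which the probe was not well above background was set at the lowest signal called well above background there, or at its own value where higher. By this probe, Eda2r was then at least 48.3-fold higher in anagen in HFD 3 months and at least 27.1-fold higher in ND 3 months. In each, 0 of 3 telogen arrays were well above background. Eda2r was at least 34.2-fold higher by it in HFD 4 days (1 of 3) and at least 3.60-fold higher in ND 4 days (2 of 3). In aged cells, with 3 of 3, the measured ratio was 27.0-fold. Single arrays weighed on these values: without aged telogen replicate 2 the ratio was 53.8-fold, and in ND 4 days the bound was 7.86-fold without telogen replicate 3 and 2.18-fold without replicate 2.

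**Figure D1:**
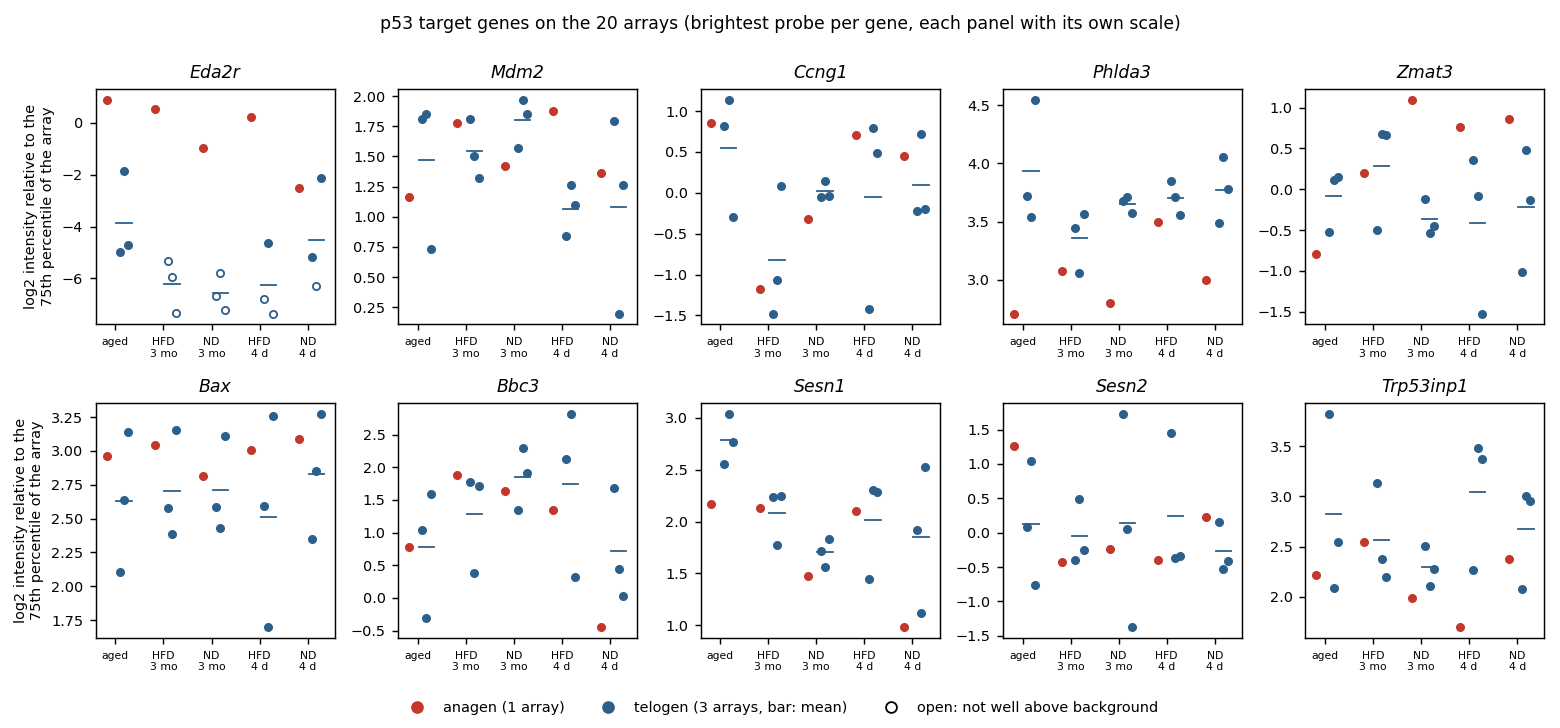
Log2 intensity relative to the 75th percentile of the array for the 10 p53 target genes on the 20 arrays, with the anagen array (red) left of the 3 telogen arrays (blue, bar: their mean) in each condition; open points were not well above background. Eda2r separated the phases except for 2 telogen arrays at -1.87 and -2.11, while the other genes overlapped.

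The array carries 3 Eda2r probes, and they did not give the same picture. The probe used above, for which alone the fold values hold, is A_52_P354844. Probe A_52_P207163 also read higher in anagen in all 5 conditions, by 2.29 ± 1.30 (log2, mean and SD, n = 5), and was well above background on 3 of 5 anagen and 4 of 15 telogen arrays. In ND 3 months and ND 4 days its anagen array was not well above background. Its difference in ND 3 months was 0.72, with -4.89 in anagen. There 2 of 3 telogen arrays were well above background, and telogen replicate 2 read higher than anagen, at -4.21. Probe A_66_P122860 was well above background on 1 array, that of HFD 4 days anagen. Across the 20 arrays the used probe correlated with these at r = 0.49 and 0.19.

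Among feedback and signalling targets, Mdm2, which marks p53 for degradation, had anagen values of 1.17, 1.78, 1.42, 1.88 and 1.36 in aged, HFD 3 months, ND 3 months, HFD 4 days and ND 4 days. Its telogen values spanned 0.20 to 1.97 with a median of 1.50. The anagen values lay within the telogen range, higher than the telogen mean in 3 conditions and lower in 2, with a mean difference of 0.13 ± 0.48 (log2, SD, n = 5). Its dimmer probe, A_55_P2606086, read lower in anagen in all 5 conditions, by -3.07 ± 1.81, so the direction for Mdm2 depends on the probe. Ccng1, cyclin G1, spanned -1.18 to 0.85 in anagen and -1.48 to 1.14 in telogen, with a mean difference of 0.14 ± 0.48 and signs split 3 to 2.

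Phlda3, a membrane-binding protein that restrains the kinase Akt, lay on the opposite side to Eda2r. Its anagen values were 2.71 in aged, 3.08 in HFD 3 months, 2.80 in ND 3 months, 3.49 in HFD 4 days and 3.00 in ND 4 days. The telogen arrays spanned 3.06 to 4.55 with a median of 3.67. The anagen array was below the mean of its telogen arrays in all 5 conditions and below each of them in 4, the exception being HFD 3 months. The mean difference was -0.67 ± 0.42 (log2, SD, n = 5).

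Trp53inp1, a stress protein that binds p53 and takes part in autophagy, also lay lower in all 5 conditions. Its anagen values spanned 1.69 to 2.54 and its telogen values 2.07 to 3.83, with a mean difference of -0.52 ± 0.51 (log2, SD, n = 5). In HFD 3 months the difference was -0.03, and its dimmer probe gave 0.12 ± 1.05 with signs split 3 to 2.

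Of the death effectors, Bax, which forms pores in the outer mitochondrial membrane, read higher in anagen in all 5 conditions by a small margin. Its anagen values were 2.96, 3.05, 2.81, 3.01 and 3.09 in aged, HFD 3 months, ND 3 months, HFD 4 days and ND 4 days, against telogen values spanning 1.70 to 3.28. No anagen value was above all 3 telogen arrays of its condition, and the mean difference was 0.31 ± 0.14 (log2, SD, n = 5). Its dimmer probe gave 0.08 ± 1.12 with signs split 3 to 2. Bbc3, known as Puma, which blocks survival proteins of the Bcl2 family, spanned -0.45 to 1.89 in anagen and -0.30 to 2.82 in telogen, with a mean difference of -0.23 ± 0.64.

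The sestrins, which restrain the growth kinase complex mTORC1, and the RNA-binding zinc finger protein Zmat3 had mixed signs. Sesn1 gave a mean anagen minus telogen difference of -0.32 ± 0.42 (log2, SD, n = 5), with 3 conditions lower, and Sesn2 one of 0.05 ± 0.74, also with 3 lower. Zmat3 was 1.47 higher in anagen in ND 3 months, 1.18 in HFD 4 days and 1.09 in ND 4 days, with the anagen array above all 3 telogen arrays of each of these conditions. It differed by -0.08 in HFD 3 months and by -0.71 in aged cells, where anagen lay below all 3 telogen arrays, and its mean difference was 0.59 ± 0.93.

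Counted over the list, 2 of 10 members (Eda2r and Bax) were higher in anagen in all 5 conditions, where 9.25% of all tested genes were, and 2 of 10 (Phlda3 and Trp53inp1) were lower in all 5, where 9.67% were. The high anagen signal of Eda2r chose the set, so the higher count includes it by design, and Bax was the only other such member. The median difference of the 10 members was 0.09 (log2), and 0.05 without Eda2r, beside -0.16 for all genes, of which 39.6% lay above 0. Scaling by the array median instead moved the median of all genes to 0.06; Mdm2 then joined the genes higher in all 5 conditions and 0 members were lower in all 5. These differences are therefore relative to the other genes of the array. Without ND 3 months telogen replicate 2 the count of higher members was 1, Eda2r, and without HFD 3 months telogen replicate 1 the count of lower members was 1, Phlda3.

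**Figure D2:**
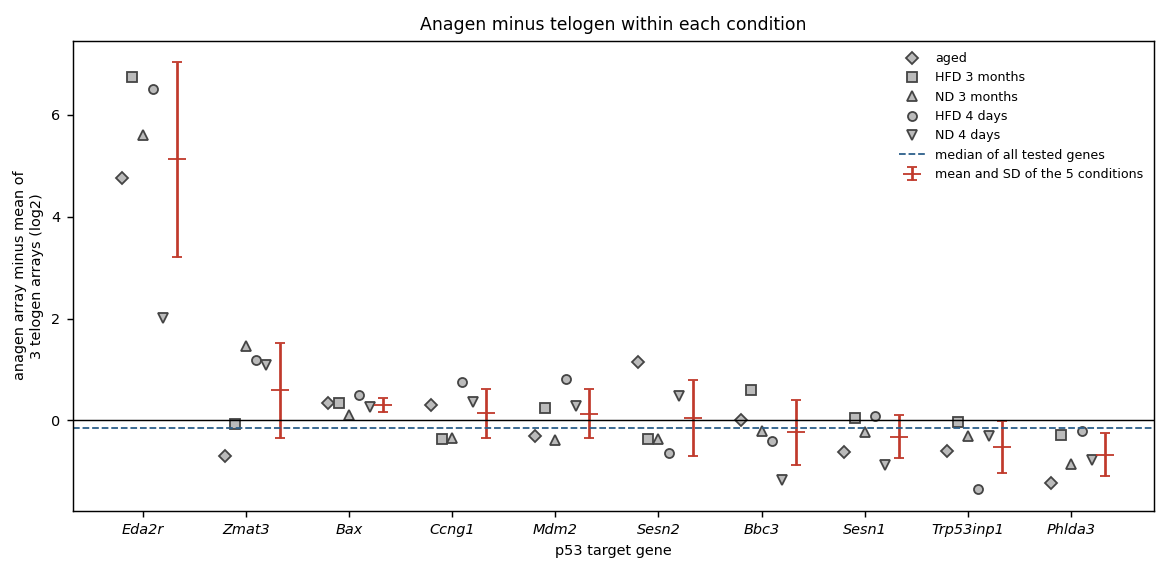
Anagen array minus the mean of the 3 telogen arrays (log2) for each p53 target gene, one grey symbol per condition, with the mean and SD of the 5 conditions in red and the median of all tested genes (-0.16) as a dashed line. Eda2r lay between 2.01 and 6.75, and the means of the other 9 genes lay between -0.67 and 0.59.

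Genes of cell division moved with the phase. Of 16 mitotic genes, 13 rose in anagen and 0 fell (limma over 20 arrays, adjusted p below 0.05), where 2.81% of all tested genes rose and 3.31% fell. Their mean value was 1.11 to 2.19 on the anagen arrays and -3.16 to 0.48 on the telogen arrays. On the 2 telogen arrays with the highest Eda2r values it was -0.47 (aged replicate 2) and -2.44 (ND 4 days replicate 3). The telogen array with the highest mitotic mean, HFD 3 months replicate 1 at 0.48, read -5.35 for Eda2r. The summed linear level of the 8 bulge markers was 153 to 200 in anagen and 178 to 349 in telogen. In each condition the anagen array lay below all 3 telogen arrays for this sum. By limma, 2 of the 8 bulge markers fell in anagen and 0 rose. The summed level of differentiated epidermis markers, 5 of 6 tested, was 80.0 to 118 in anagen and 30.9 to 117 in telogen. Except in HFD 3 months, the anagen array lay above all 3 telogen arrays of its condition for this sum. Of the 5 tested markers, 3 were higher in anagen in all 5 conditions, and by limma 1 rose and 0 fell. That of fibroblast markers, 4 of 6 tested, was 0.98 to 2.42 in anagen and 2.27 to 9.94 in telogen. By limma, 1 of these 4 genes rose in anagen and 1 fell, so the sum does not describe them all. The brightest, Col1a2, spanned -0.58 to 0.76 (log2) in anagen and 1.07 to 3.28 in telogen. Dcn spanned -6.21 to -1.50 in anagen and -7.29 to -5.91 in telogen. That of macrophage and Langerhans cell markers, 4 of 6 tested, was 100.6 to 181 in anagen and 106.7 to 216 in telogen, and 0 of these 4 genes rose or fell by limma. This sum was mostly Itgam, at 6.58 to 7.40 (log2) in anagen and 6.61 to 7.68 in telogen. Cd74 spanned -2.93 to 4.00 in anagen and -0.99 to 3.20 in telogen. Neither of the 2 endothelial markers tested was well above background on all 20 arrays, but Pecam1 was on 17. Their summed level was 0.04 to 0.82 in anagen, highest in ND 3 months, and 0.04 to 0.13 in telogen. The part of cell division or cell type makeup in the Eda2r difference was not tested.

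The genes most like Eda2r across the 20 arrays were the histone gene H2bc18 (Pearson r 0.84, Spearman rho 0.78), the endothelin ligand gene Edn2 (0.83 and 0.77), the mitotic activator Cdc20 (0.81 and 0.66), Ulbp1, a ligand of a natural killer cell receptor (0.79 and 0.68), and the proteasome subunit gene Psmd14 (0.79 and 0.71). These arrays share the split between phases, so the correlations describe that split in large part. The other 9 members had r between -0.52 (Phlda3) and 0.26 (Zmat3) with Eda2r. Over the 15 telogen arrays, as deviations from group means, the genes most like Eda2r were Gimap9 (r 0.93), Bag6 (0.91), Gnpda2 (0.89), Fyco1 (0.88) and Map6 (0.88), and the closest members were Sesn1 (0.60) and Mdm2 (0.48). The Eda2r probe was well above background on only 6 of these 15 arrays, so most of its deviations lie near background. These telogen correlations are the highest among all tested genes and were not tested. Across all 45 pairs of members the median r was -0.05 over 20 arrays (range -0.52 to 0.31) and -0.04 over telogen deviations (range -0.78 to 0.60). Of the 45 pairs, 19 had an r above 0 over the 20 arrays.

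A wider list of 39 further p53 targets, all tested, split in both directions in anagen. By limma, 1 rose and 4 fell (all 20 arrays, condition as a factor, adjusted over all genes), beside the 2.81% and 3.31% of all genes. Dram1, a lysosomal protein of autophagy, fell by 3.51 ± 0.52 (log2, SE, adjusted p 0.000827), with -2.99 ± 1.17 (SD, n = 5) in anagen and 0.52 ± 0.96 (n = 15) in telogen. Ephx1, an epoxide hydrolase, fell by 1.30 ± 0.21 (adjusted p 0.0014), and its anagen range of 1.58 to 2.88 lay below its telogen range of 3.18 to 4.19. Steap3, an endosomal iron reductase, fell by 2.60 ± 0.56 (adjusted p 0.0108), a call lost without the ND 3 months anagen array (adjusted p 0.0926) and without the aged anagen array. Trp53i11 fell by 0.85 ± 0.21 (adjusted p 0.0244) and kept this call under 22 of 29 other settings. The 1 gene that rose was the growth arrest gene Gadd45a, by 1.97 ± 0.54 (adjusted p 0.0416), a call kept under 15 of 29 other settings.

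Of p53 itself and its regulators, 22 tested, 1 rose and 1 fell. The checkpoint kinase gene Chek1 rose by 3.27 ± 0.81 (log2, SE, adjusted p 0.0243), a call lost without the ND 3 months anagen array (adjusted p 0.154) and without the ND 4 days one. Trp53bp2, which encodes a p53-binding cofactor, fell by 0.78 ± 0.22 (adjusted p 0.048) and kept this call under 9 of 29 other settings. Trp53 itself differed by 0.31 ± 0.24 (adjusted p 0.451) and Mdm4, the partner of Mdm2, by -0.82 ± 0.32 (adjusted p 0.139).

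In the ectodysplasin list, 1 of 20 genes rose and 0 fell. This was Map3k7, the kinase TAK1 upstream of NF-kappaB, with 1.23 ± 0.30 (log2, SE, adjusted p 0.0211), a call lost with slide as a block and without the ND 3 months, HFD 4 days or ND 4 days anagen array, with adjusted p up to 0.13. The ligand gene Eda differed by -0.69 ± 0.57 (adjusted p 0.479), Edar by -1.18 ± 0.52 (0.187) and its adaptor Edaradd by 0.85 ± 0.89 (0.585), so the ligand and the related receptor did not pass the test. Edar was dim, with a mean of -6.23 over the 20 arrays, below the Eda2r telogen median of -5.78, so its difference lies near background. Of the Bcl2 family, 12 of 14 tested, Bcl2l2, a survival protein, fell by 1.61 ± 0.33 (adjusted p 0.00867) and 0 genes rose. Pmaip1, another p53-activated death gene known as Noxa, differed by 2.76 ± 1.06 (adjusted p 0.135). Of 15 sestrin, GATOR and TSC genes, limma called 0 in either direction.

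**Figure D3:**
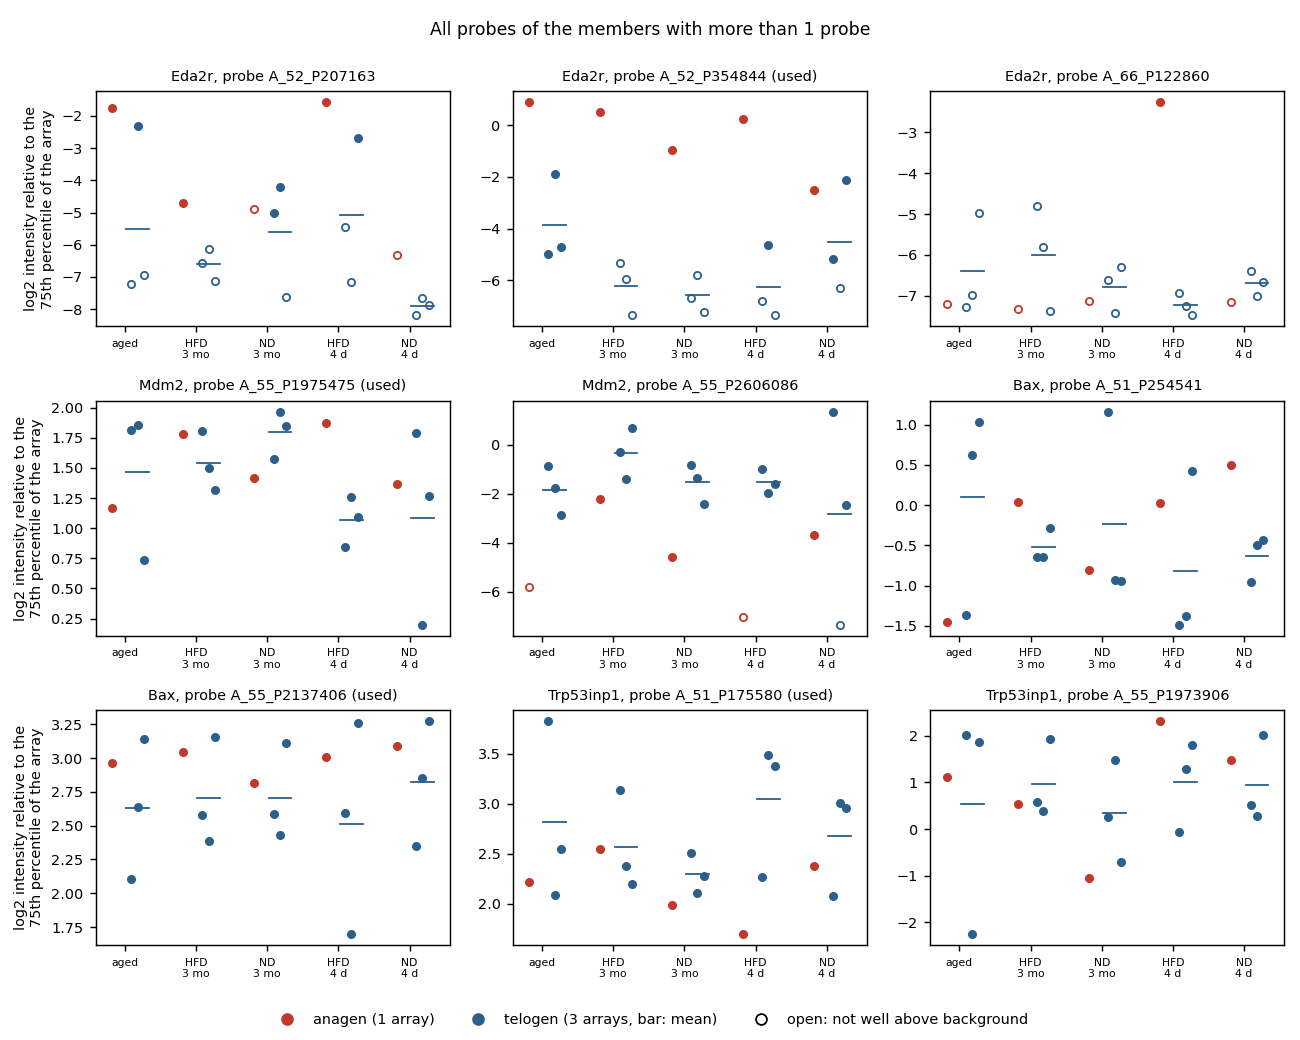
All probes of the 4 members with more than 1 probe, as log2 intensity relative to the 75th percentile of the array, with the anagen array (red) left of the 3 telogen arrays (blue, bar: their mean) in each condition; open points were not well above background. A second Eda2r probe also read higher in anagen in all 5 conditions (mean 2.29), with 3 of 5 anagen arrays well above background. The dimmer Mdm2 probe was lower in all 5 (mean -3.07).

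The telogen comparisons were not used to choose the members and were tested. HFD and ND telogen arrays of a duration lay in different rows of 1 slide, and row and diet cannot be told apart here. After 3 months of diet, the 10 members stayed close to the spread of the arrays: 0 of 10 passed between HFD and ND (limma over the 15 telogen arrays, adjusted over 18727 genes), where 0% of all genes did, and 0 had an unadjusted p below 0.05. The Eda2r probe used here was well above background on 0 of 3 arrays in both groups, so no fold is given, while its other probe A_52_P207163 was on 0 of 3 HFD and 2 of 3 ND arrays. Phlda3 read 3.45, 3.06 and 3.57 in HFD and 3.67, 3.72 and 3.57 in ND, a difference of -0.30 ± 0.30 (log2, SE, adjusted p 1). It was the 1 member whose groups did not overlap, by a narrow gap, where 9.85% of all genes did not. Ccng1 averaged -0.82 ± 0.81 in HFD and 0.02 ± 0.11 in ND (SD, n = 3 each), and Zmat3 0.28 ± 0.68 in HFD and -0.37 ± 0.22 in ND. Over the members the median was -0.09, with 4 of 10 above 0, beside -0.04 and 46.3% for all genes.

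After 4 days of diet again 0 of 10 passed, where 0% of all genes did, and 0 had an unadjusted p below 0.05. Eda2r read -6.80, -4.64 and -7.36 in HFD and -5.17, -6.30 and -2.11 in ND, with 1 and 2 of 3 arrays well above background and overlapping groups. The fitted difference of -1.74 ± 1.13 (log2, SE, adjusted p 1) takes the other arrays at values below that limit, and was -0.53 without ND replicate 3. Bbc3 averaged 1.75 ± 1.29 in HFD and 0.71 ± 0.86 in ND (SD, n = 3 each), which also overlapped. No member had groups without overlap, where 9.7% of all genes did. The median member difference was -0.04, beside -0.05 for all genes.

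With both durations averaged, 0 of 10 members passed (0% of all genes), with 0 at an unadjusted p below 0.05 and a median of 0.01 beside -0.04. Tested directly, the diet effect at 3 months minus that at 4 days also gave 0 of 10 members past the threshold (0% of all genes), with 0 at an unadjusted p below 0.05.

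The aged telogen group held the highest telogen values of Sesn1. Sesn1 read 2.56, 3.04 and 2.77 on the 3 aged arrays, against 1.71, 1.56 and 1.83 in ND 3 months and 1.92, 1.12 and 2.52 in ND 4 days. Each aged value lay above each ND value, by a narrow margin for ND 4 days replicate 3. The difference was 1.09 ± 0.37 (log2, SE) from ND 3 months (limma, unadjusted p 0.0115, adjusted p 0.305) and 0.94 ± 0.37 from ND 4 days (unadjusted p 0.0248, adjusted p 0.558), so it did not pass in either comparison. The adjusted p against ND 3 months lay between 0.248 and 0.998 under the other settings.

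Eda2r read -4.98, -1.87 and -4.73 on the aged telogen arrays, against -6.68, -5.78 and -7.24 in ND 3 months and -5.17, -6.30 and -2.11 in ND 4 days. It was well above background on 3 of 3 aged, 0 of 3 ND 3 months and 2 of 3 ND 4 days arrays, and its level by this probe in aged telogen was at least 3.62-fold higher than in ND 3 months telogen, or at least 1.82-fold without aged replicate 2. By probe A_52_P207163 the groups overlapped: it averaged -5.49 ± 2.75 in aged and -5.61 ± 1.79 in ND 3 months (SD, n = 3 each), with 1 and 2 of 3 arrays well above background. The fitted difference of 2.70 ± 1.13 (log2, SE) from ND 3 months did not pass (limma, unadjusted p 0.0332, adjusted p 0.376), and without aged replicate 2 it was 1.71 (adjusted p 0.521) and with normexp 1.11 (adjusted p 0.569). From ND 4 days it was 0.67 ± 1.13 (adjusted p 0.945), with overlapping groups, and -0.33 without aged replicate 2.

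The aged arrays shared a slide of their own among the telogen groups. With slide as a block over all 20 arrays, where only the single anagen arrays separate slide from condition, the difference from ND 3 months became -0.30 (log2) for Sesn1 and -2.51 for Eda2r, and that from ND 4 days 0.33 for Sesn1 and -1.03 for Eda2r. Age and slide therefore cannot be told apart for these genes in telogen. On the anagen arrays, Sesn1 read 2.17 in aged, 1.47 in ND 3 months and 0.98 in ND 4 days. It read 2.13 in HFD 3 months and 2.11 in HFD 4 days. The aged and ND anagen arrays also lay on different slides, so the same limit holds there.

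Counted over the list, 0 of 10 members passed between aged and ND 3 months telogen, where 0.0641% of all genes did. An unadjusted p below 0.05 was found for 2 members, Sesn1 and Eda2r, and for 2232 of all 18727 genes. The groups of these 2 members did not overlap, where 18% of all genes did not. Between aged and ND 4 days telogen 0 of 10 passed (0.0374% of all genes). There 1 member, Sesn1, had an unadjusted p below 0.05, as did 1470 of all 18727 genes, and groups without overlap (10.5% of all genes). The median differences were 0.28 with 6 of 10 members above 0, beside 0.06 and 53.5% for all genes, and 0.27 with 9 of 10 above 0, beside -0.09 and 43.7%. Both comparisons use the same aged arrays.

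Between the ND groups, 5-month against 2-month mice, 0 of 10 members passed (0.016% of all genes). An unadjusted p below 0.05 was found for 0 members and for 2219 of all 18727 genes. The telogen arrays of these groups lay on different slides, so age and slide cannot be told apart here either. By the probe used, Eda2r was at least 2.28-fold lower in ND 3 months than in ND 4 days telogen, where 2 of 3 arrays were well above background, and its fitted difference was -2.04 ± 1.13 (log2, SE, adjusted p 0.499). Under 27 other settings that difference lay between -2.92 and 1.48, and 2 of them turned its sign. The bound rests on ND 4 days replicate 3: without it the ND 4 days mean was -5.74, beside -5.72 for ND 3 months at the lowest signals called well above background, which leaves no fold. Probe A_52_P207163 ran the other way, with -5.61 ± 1.79 in ND 3 months (2 of 3 arrays well above background) and -7.90 ± 0.28 in ND 4 days (0 of 3; SD, n = 3 each). Bbc3 averaged 1.85 ± 0.48 in ND 3 months and 0.71 ± 0.86 in ND 4 days, and Mdm2 1.80 ± 0.20 and 1.08 ± 0.81 in the same groups (SD, n = 3 each). No member had groups without overlap, where 24.2% of all genes did.

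**Figure D4:**
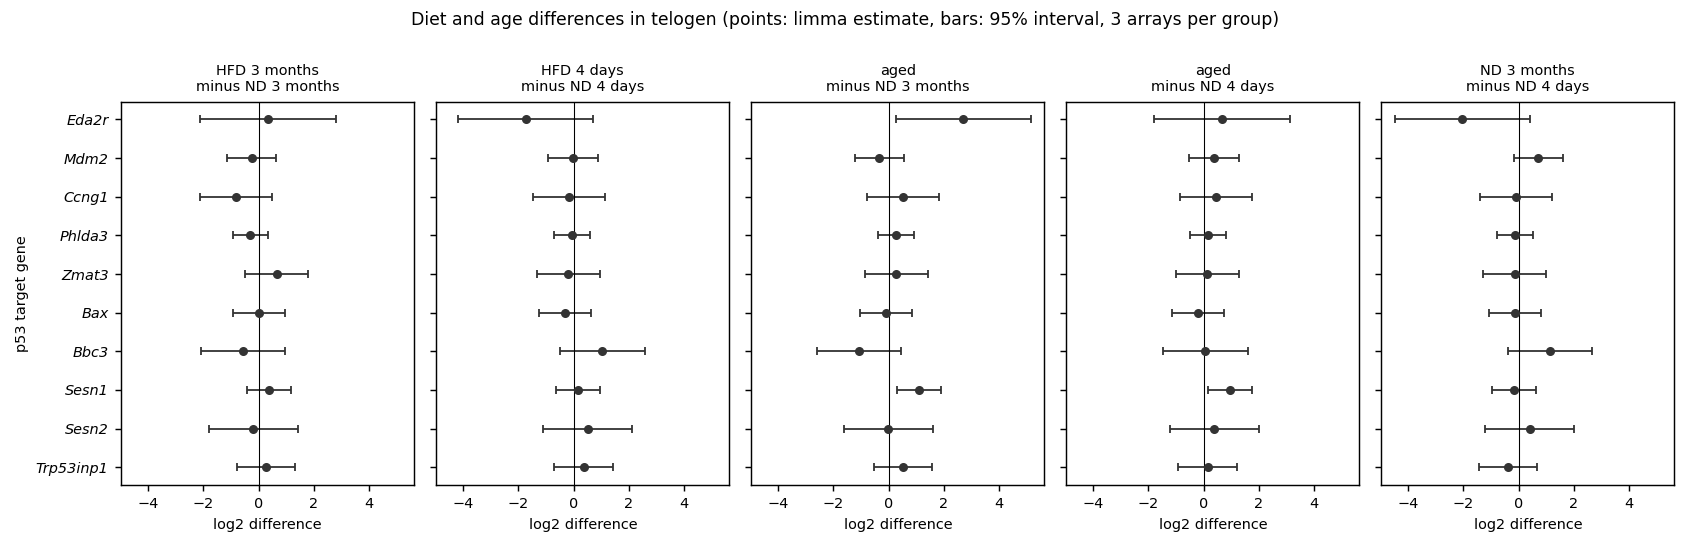
Log2 differences of the 10 p53 target genes in 5 telogen comparisons (limma estimate with its 95% interval, 3 arrays per group; for Eda2r, arrays not well above background enter at their measured values). The intervals of Sesn1 in both ageing comparisons and of Eda2r in aged minus ND 3 months left out 0 before adjustment, and no gene passed after adjustment over all genes.

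The number of arrays limited what could be seen. The half-width of the 95% interval of a telogen difference between groups was 0.65 (log2) for Phlda3 and 2.45 for Eda2r, beside a median of 1.15 over all genes. The pooled SD within telogen groups was 1.51 for Eda2r, at percentile 88.3 of all tested genes, and 0.31 for Phlda3, at percentile 11.5.

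The wider list of 39 p53 targets had 0 genes past the threshold in every telogen comparison. At an unadjusted p below 0.05 there were 1 after 3 months of diet, 1 after 4 days, 0 over both durations, 2 for diet by duration, 3 for aged against ND 3 months, 0 for aged against ND 4 days and 3 between the ND groups. Among all 18727 tested genes the numbers, in the same order, were 730, 817, 803, 701, 2232, 1470 and 2219. Gadd45a averaged 1.07 ± 0.63 in HFD 3 months and -1.56 ± 2.36 in ND 3 months (SD, n = 3 each; limma difference 2.63 ± 0.92, SE, adjusted p 1). Gadd45a averaged 0.60 ± 1.21 in aged telogen and 1.38 ± 0.17 in ND 4 days, so its comparisons share the low ND 3 months arrays. Tigar, a regulator of glycolysis, differed by -3.82 ± 1.46 between aged and ND 3 months (adjusted p 0.347), with 2 of 3 aged arrays well above background. None of these differences passed the test.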

How the data were processed

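Total RNA of hair follicle stem cells was labelled with Cy3 and hybridised to 1 Agilent mouse array per sample, per the labels' protocols. The isolation of the cells is not described in the labels. The scanner files hold a background-subtracted, detrended intensity per spot made with Feature Extraction 10.7.1.1, per the file headers. The authors' deposited series table gives 1 signal for each probe, which matched the intensity divided by the 75th percentile of its array, with no centring. Outlier spots were set to missing, spots of a probe were averaged, and log2 intensities were scaled by subtracting that percentile.

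Probes were named through their transcript accessions and RefSeq: 32994 of 56605 matched 1 symbol. Tests used probes that were well above background on every array of at least 1 telogen group of 3, or on 3 of 5 anagen arrays (43395 probes), and a gene was taken as its brightest tested probe (18727 genes). A single limma fit (limma 3.58.1, R 4.3.3) over 15 arrays compared the telogen groups, and a second over 20 arrays, with terms for condition and phase, compared list genes between phases. Two-sided p-values were adjusted by Benjamini-Hochberg over all tested genes, with 0.05 as the threshold. The fits were tested on simulated data. No counts or depths exist for arrays, so their number limits the precision.

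The members and gene lists were chosen with earlier results of these data known. All 10 members were counted in every comparison and are named for anagen against telogen. The plot of log2 differences in 5 telogen comparisons shows all 10, while the telogen text names only some of them. For diet over both durations and diet by duration, only summaries over the members are given. Of the other lists, mitotic genes and cell markers aside, up to 4 genes past the threshold with the smallest p are named. Trp53, Mdm4, Eda, Edar, Edaradd, Pmaip1 and Gadd45a in anagen were added after their values were seen. In telogen, where no gene of the wider target list passed, only Gadd45a and Tigar are named from it. A gene of the wider target list is not reported here and was left out of its counts. For likeness, the 5 genes with the highest correlation with Eda2r are named. Alternatives were normexp with an offset of 50 (on the median signal, as the files hold no mean signal), quantile or median scaling, a percentile over detected probes, no or a stricter filter, the mean over probes, the series table, a trend with robust eBayes, array weights, other arrays in the fit, a replicate or slide block, and leaving out each array. Same-numbered arrays of different telogen groups did not deviate together (correlations of -0.139 to 0.0587 over 30 pairs), so the numbers were not taken to pair them.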

Additional observations from a re-analysis of the deposited data

How the results depend on the processing

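No member passed in any of the 7 telogen comparisons under the 28 alternatives, where the smallest adjusted p was 0.248, and of 1953 telogen member values under them 111 turned sign and 0 passed. With the replicate number as a block, which the pairing check does not call for, 0 members passed, as without it. The count of members higher in anagen in all 5 conditions was 1 when only probes well above background on all 20 arrays were kept (Bax, with Eda2r filtered out), 1 with the mean over probes (Eda2r), and 1 to 2 when single arrays were left out. The count of lower members was 0 with median scaling, where the median of all genes was 0.06 in place of -0.16, and 1 to 2 when single arrays were left out. Of 299 anagen member values, 10 turned sign, none of Eda2r, Bax, Phlda3 or Trp53inp1. The wider list, examined with the same alternatives in a step chosen after seeing the data, gave 0 to 2 genes higher and 2 to 5 lower. The lower bounds of Eda2r with each array at its limit of detection, and without single arrays, were also chosen after seeing the data. The cause of these shifts was not tested. Eda2r lies near background in most telogen arrays, so its telogen values, and the size of its anagen difference, depend on the background correction (3.40 with normexp against 5.12). With 1 anagen array per condition, diet and age in anagen have no replicate check.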

Other observations

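Diet and age could be set side by side in anagen only between single arrays, so these values carry no test. The arrays of each pair also lay on different slides, so slide cannot be told apart from diet or age here. Eda2r differed by 1.49 (log2) between HFD and ND after 3 months and by 2.75 after 4 days, and by 1.85 between aged and ND 3 months and 3.41 between aged and ND 4 days. Sesn1 gave 0.65, 1.13, 0.70 and 1.19 in the same comparisons, all on the higher side. Sesn2 differed by 1.49 between aged and ND 3 months and by 1.04 between aged and ND 4 days, but by -0.19 and -0.61 between HFD and ND. Zmat3 was lower in aged than in ND anagen, by -1.89 and -1.66. Bbc3 differed by 0.25 and 1.80 between HFD and ND and had opposite signs against the 2 ND ages, -0.86 and 1.23. The remaining 5 members differed by at most 1.17 in size.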
